A study of Caenorhabditis elegans with 8 samples.

Results

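The short-chain dehydrogenase (dhs), aldehyde dehydrogenase (alh), alcohol dehydrogenase (sodh) and flavin-containing monooxygenase (fmo) genes of Caenorhabditis elegans were followed in RNA-seq read counts of whole worms. They were taken by symbol from the deposited count table: every gene row named dhs, alh, sodh or fmo with a number, except dhs-23 and loci added by the authors. This gave 48 of the 21309 rows, namely 29 dhs, 12 alh, 5 fmo and 2 sodh genes. Worms had received 200 µM magnolol for 1 h (3 libraries), 200 µM honokiol for 1 h (2 libraries) or the solvent DMSO as control (3 libraries). Magnolol and honokiol are isomeric biphenols of Magnolia bark whose allyl and hydroxyl groups sit at different ring positions. The labels give neither strain nor stage, and no statement that replicates were separate cultures, so p-values measure the spread between these libraries, which may be technical.

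Enzymes of these families carry out oxidation and reduction steps on small molecules. Short-chain dehydrogenases interconvert alcohols with ketones or aldehydes using NAD(H) or NADP(H), aldehyde dehydrogenases oxidise aldehydes to acids, and the sodh genes encode zinc-dependent alcohol dehydrogenases. Flavin-containing monooxygenases use FAD, NADPH and oxygen to add an oxygen atom to nitrogen or sulfur in their substrates. Together with cytochrome P450s such enzymes can act on foreign compounds, but many members of these families serve lipid, amino acid or steroid metabolism instead.

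Library totals ran from 30274330 to 35888186 counts. Magnolol replicate 2 and control replicate 3 stood apart from the other libraries of their groups. Over all genes chi-square per degree of freedom was 41.2 and 32.3 between magnolol 2 and the other magnolol libraries, against 8.41 between those, and 32.4 and 36.6 between control 3 and the other controls, against 11.7. The 2 honokiol libraries differed by 29.5 on this measure, and which of them stood apart cannot be told. Of 25 tissue markers 21 were found in the table, from intestine, muscle, pharynx, neurons, epidermis and germ cells, and all 21 had counts in every library. None of them passed the test in any comparison. The summed intestine markers stood at 8348 to 13050 CPM with magnolol, 5080 to 8064 CPM with honokiol and 7038 to 8426 CPM in control. Body wall muscle markers summed to between 5709 and 9908 CPM in magnolol libraries, 3671 and 5416 CPM in honokiol libraries, and 5287 and 6374 CPM in controls. Pharynx markers summed to between 590.5 and 896 CPM in magnolol libraries, 387 and 557 CPM in honokiol libraries, and 556 and 635 CPM in controls. The part of these levels in the results was not tested. In RNA of whole worms, fewer cells of a type and less RNA per cell cannot be told apart. CPM are depth-scaled counts on TMM-adjusted library sizes, changes are log2 fold changes ± SE from edgeR's quasi-likelihood test, and a gene is said to have risen or fallen at a Benjamini-Hochberg adjusted p under 0.05 over all 16813 rows tested.

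In control worms levels per kb of exon could be given for 46 genes with counts and an exon length. The highest was alh-8 at 423 CPM per kb, the gene for methylmalonate-semialdehyde dehydrogenase, which acts in valine breakdown and in the shunt that degrades propionate. It was followed by alh-1, a mitochondrial aldehyde dehydrogenase, at 247 CPM per kb. Next came dhs-28 at 144 CPM per kb and alh-4 at 143 CPM per kb. DHS-28 shortens the side chains of ascaroside pheromones in peroxisomes, and ALH-4 is a fatty aldehyde dehydrogenase. The lowest tested member was dhs-8 at 0.189 CPM per kb, below dhs-26 at 0.579 and dhs-16 at 0.965 CPM per kb. The median was 33.5 CPM per kb over the 29 dhs genes and 11.1 CPM per kb over the 5 fmo genes. In CPM without division by length, sodh-1 was among the most abundant at 527 ± 48.3 CPM in control (SD, n = 3), while sodh-2 had 1.94 ± 0.814 CPM. No exon length was assigned to sodh-1, whose symbol is not in the annotation used. In that annotation sodh-2 overlaps the gene adh-1 on the opposite strand. The 48 genes together took 3941 to 4220 CPM with magnolol, 3995 and 4186 CPM with honokiol, and 4166 to 4228 CPM in control, ranges that overlapped.

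**Figure D1:**
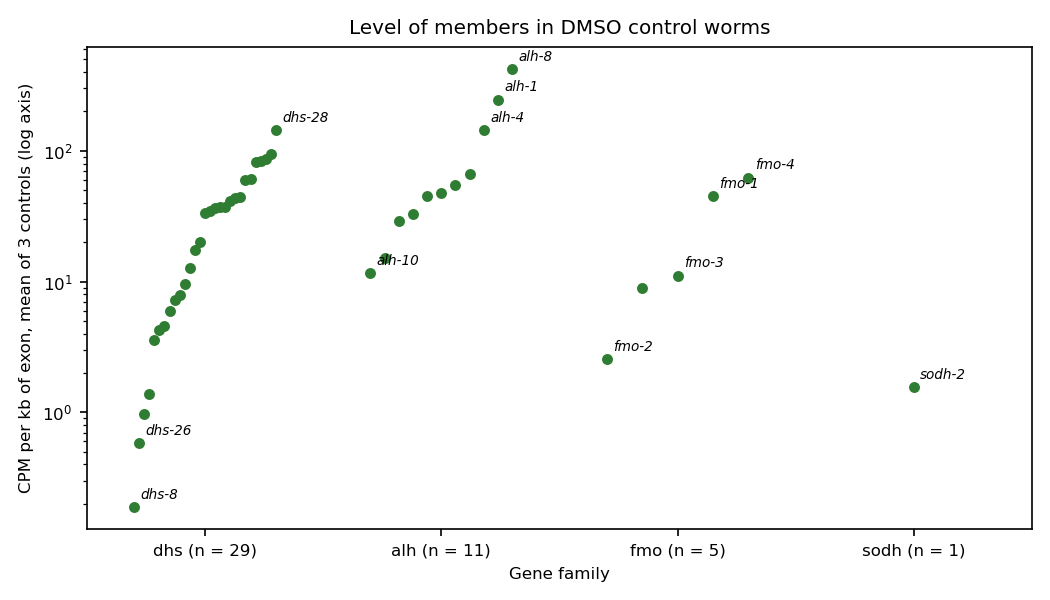
Level in DMSO control worms, as CPM per kb of exon (mean of 3 libraries, log axis), for each gene of the 4 families. The aldehyde dehydrogenase genes alh-8 and alh-1 lie at the top and dhs-8 at the bottom; alh-2, with no control counts, and sodh-1, with no exon length, are left out.

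The only member under the low-count filter was alh-2. It had 2 counts in magnolol replicate 3 and 0 in magnolol 1 and 2, 7 counts in honokiol replicate 2 and 0 in honokiol 1, and 0 counts in all 3 controls. A count of 0 allows up to 3 counts in a library of this depth. The other 47 genes were tested.

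With magnolol, 1 of the 47 tested members rose and 1 fell, against 2.16% of all rows called higher and 0.702% called lower (2.87% in all). The gene that rose was dhs-8, a dehydrogenase gene often listed among targets of the stress regulator SKN-1, and the gene that fell was dhs-20. The other 45 members were not called. Their changes lay between -0.99 and 1.04, and 41 of them were within 0.5 of 0 on the log2 scale. Of the 47 members 18 had a change above 0, against 50.4% of all rows, and the median change was -0.05 over the members and 0.00 over all rows.

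The dhs-8 gene (chromosome II, 14498026 to 14499755, plus strand of WBcel235, protein-coding) had 2.00, 1.09 and 2.46 CPM in the 3 magnolol libraries, against 0.321, 0.238 and 0.132 CPM in the controls. These are 67, 34 and 87 counts with magnolol and 11, 8 and 4 counts in control. Each magnolol library was above each control, and the groups did not overlap. The change was 2.97 ± 0.49, or 7.86-fold (edgeR adjusted p = 0.00204). In limma-voom the adjusted p was 0.0738.

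The dhs-20 gene (chromosome V, 11602294 to 11604563, minus strand, protein-coding) had 6.38, 6.47 and 5.46 CPM with magnolol, against 11.8, 13.1 and 9.76 CPM in control. All magnolol libraries lay below all controls. The change was -0.92 ± 0.16, so that the level was 1.89-fold lower with magnolol (edgeR adjusted p = 0.0026). It overlaps F35B12.9 by 65 bases on the opposite strand, a gene that averaged 39.0 ± 3.75 CPM in magnolol libraries, against 35.3 ± 1.2 CPM in controls (SD, n = 3 each), and was not called. On the same strand dhs-20 overlaps idpp-16 by 82 bases, for which no row of that name was found in the table. Both dhs-8 and dhs-20 passed the test with each of the 8 libraries left out in turn.

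**Figure D2:**
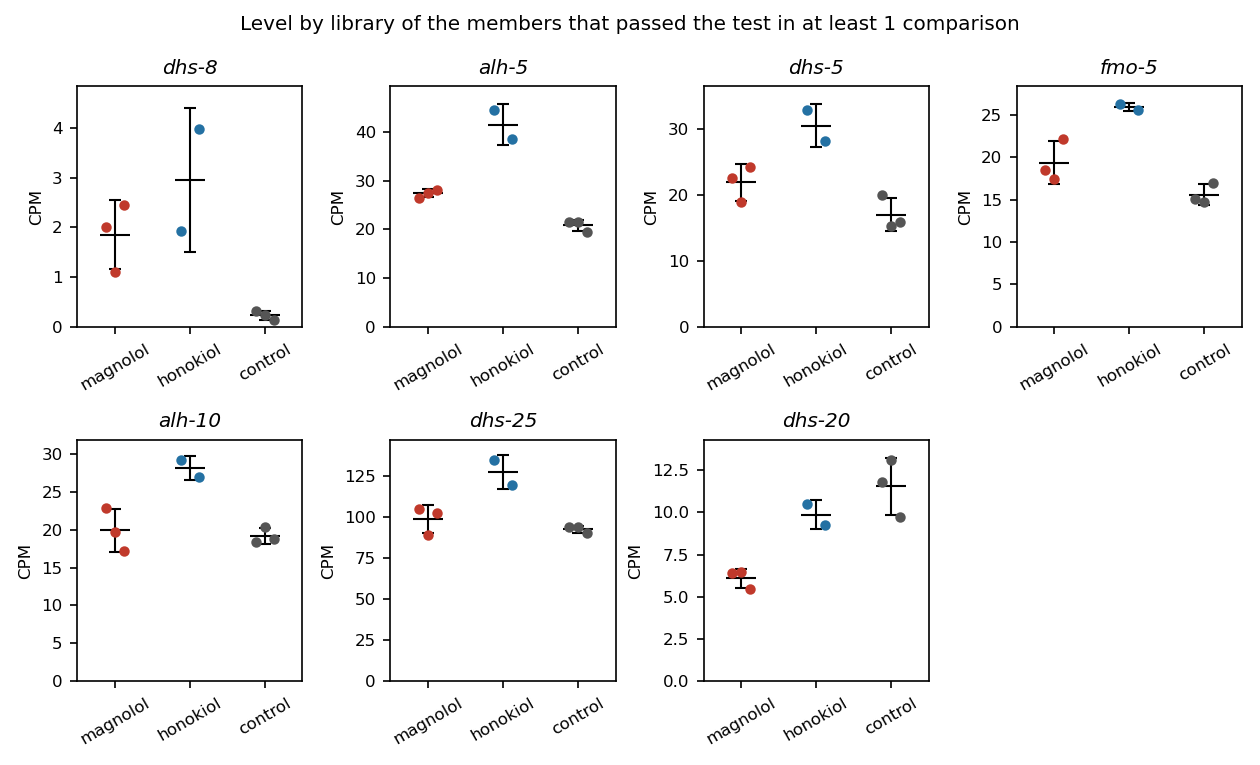
CPM in each library (points) with the group mean and SD (bars) for the 7 genes that passed the test in at least 1 comparison, with magnolol and control n = 3 and honokiol n = 2. In alh-5, dhs-5, fmo-5, alh-10 and dhs-25 both honokiol libraries lie above every other library, and in dhs-20 the 3 magnolol libraries lie below every other library.

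Some members stood near the threshold with magnolol without passing the test. Among them dhs-2 changed by -0.41 ± 0.11 (edgeR adjusted p = 0.0701) and dhs-4 by -0.75 ± 0.22 (edgeR adjusted p = 0.0895). For dhs-2 and dhs-4 all magnolol libraries lay below all controls. The alh-5 gene had 26.6, 27.6 and 28.2 CPM with magnolol and 21.5, 21.5 and 19.5 CPM in control, a change of 0.40 ± 0.10 (edgeR adjusted p = 0.0546). For dhs-16, whose product acts in the synthesis of the steroid hormone dafachronic acid, the libraries held 2.95, 2.45 and 2.60 CPM with magnolol and 1.197, 1.13 and 1.55 CPM in control. The change of dhs-16 was 1.04 ± 0.29 (edgeR adjusted p = 0.0794). Among the alternatives only DESeq2 called dhs-16, with an adjusted p of 0.0428. In both genes the magnolol libraries lay above the controls without overlap. The fmo-1 gene, a monooxygenase, had 72.6, 67.5 and 70.3 CPM with magnolol and 91.8, 92.8 and 86.1 CPM in control, and all 3 magnolol libraries were lower. Its change was -0.36 ± 0.10 (edgeR adjusted p = 0.068), with 0.0181 in DESeq2 and 0.0254 when only magnolol and control libraries were fitted. In limma-voom the adjusted p of fmo-1 was 0.0563, and in edgeR without magnolol 3 it was 0.223. In all, 4 of 47 members lay above control without overlap and 11 lay below, against 11.9% and 10.3% of all rows (22.2% in all). At an unadjusted p under 0.05 there were 5 higher and 9 lower members, against 8.6% and 6.82% of all rows (15.4% in all).

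With honokiol, 6 of the 47 tested members rose and none fell, against 3.04% of all rows called higher and 0.393% called lower (3.43% in all). The genes that rose were dhs-8, dhs-5 and dhs-25 of the short-chain dehydrogenases, alh-5 and alh-10 of the aldehyde dehydrogenases, and the monooxygenase gene fmo-5. The 41 members that were not called had log2 values of -0.69 to 0.54, and 38 of them were within 0.5 of 0 on the log2 scale. For the lower direction, edgeR, DESeq2 and limma-voom each called 0 members, and 3 had an unadjusted p under 0.05 in edgeR. Of the 47 members 25 had a change above 0, against 47.5% of all rows, and the median change was 0.01 over the members and -0.01 over all rows.

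The largest rise was again that of dhs-8, which had 1.93 and 3.98 CPM in the 2 honokiol libraries, against 0.321, 0.238 and 0.132 CPM in control. Both honokiol libraries were above every control, with 65 and 134 counts against 11, 8 and 4. The change was 3.64 ± 0.51, or 12.5-fold (edgeR adjusted p = 0.000317). The alh-5 gene (chromosome V, 1996105 to 1999581, minus strand) had 44.5 and 38.5 CPM with honokiol and 21.5, 21.5 and 19.5 CPM in control. It rose by 0.99 ± 0.11, or 1.99-fold (edgeR adjusted p = 3.07e-05), with no overlap between the groups.

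The rises of dhs-5 and fmo-5 were smaller. The dhs-5 gene (chromosome II, 5453847 to 5455977, plus strand) had 32.8 and 28.1 CPM with honokiol and 19.9, 15.3 and 15.8 CPM in control, a change of 0.84 ± 0.15 (edgeR adjusted p = 0.00272). The fmo-5 gene (chromosome V, 899304 to 903665, minus strand) had 26.3 and 25.6 CPM with honokiol and 15.1, 14.7 and 17.0 CPM in control, a change of 0.73 ± 0.13 (edgeR adjusted p = 0.00375). In each of these genes both honokiol libraries were above all controls. Of the 5 monooxygenase genes fmo-5 was the only one called. The most abundant of them in CPM, fmo-4, had 145.8 and 175.4 CPM with honokiol and 121.4, 121.6 and 135.3 CPM in control, without overlap. Its change was 0.35 ± 0.11 with honokiol (edgeR adjusted p = 0.136) and 0.12 ± 0.10 with magnolol (edgeR adjusted p = 0.61). Leaving out any one library kept dhs-8, alh-5, dhs-5 and fmo-5 past the threshold.

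The calls of dhs-25 and alh-10 were lost when some single libraries were left out. Over all fits with 1 library left out, the change ran from 0.39 to 0.53 for dhs-25 and from 0.51 to 0.60 for alh-10. Fits without a honokiol library held only 1 library of that group. The dhs-25 gene (chromosome X, 1486532 to 1489326, plus strand) had 134 and 119.7 CPM with honokiol and 93.8, 93.8 and 90.0 CPM in control, a change of 0.46 ± 0.10 (edgeR adjusted p = 0.0196). Without honokiol 1, control 1 or control 2 the adjusted p was 0.194, 0.0718 and 0.056 in that order. The alh-10 gene (chromosome X, 7140504 to 7143641, minus strand) had 29.3 and 27.0 CPM with honokiol and 18.4, 20.4 and 18.8 CPM in control, a change of 0.55 ± 0.13 (edgeR adjusted p = 0.0326). Its adjusted p was 0.205 without honokiol 1 and 0.119 without honokiol 2, and 0.12, 0.0553 and 0.0695 without controls 1, 2 and 3. For both genes the honokiol libraries were above the controls without overlap. The clec-86 gene, which overlaps alh-10 by 63 bases on the opposite strand, averaged 5.74 ± 0.442 CPM in honokiol libraries, against 6.63 ± 1.74 CPM in controls (SD, n = 2 and 3), and was not called.

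The dhs-14 gene fell just short of the threshold, with 66.5 and 82.5 CPM with honokiol, against 56.4, 48.0 and 58.2 CPM in control. Its change was 0.46 ± 0.12 (edgeR adjusted p = 0.0572), and DESeq2 and limma-voom both called it. Its neighbour dhs-15, 3160 bases away on the same strand of chromosome V, had 0.861 and 1.28 CPM with honokiol and 2.31, 0.773 and 1.02 CPM in control, groups that overlapped. Over all members, 10 lay above control without overlap and 7 below, against 13.1% and 10.5% of all rows (23.5% in all). At an unadjusted p under 0.05 there were 9 higher and 3 lower members, against 6.75% and 4.09% of all rows (10.8% in all).

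The dhs-26 gene differed widely between the honokiol libraries. It had 28 counts in honokiol 1 and 0 in honokiol 2, where a count of 0 allows up to 3, against 18, 28 and 20 counts in the controls. Its change had an SE of 1.04, and no difference from control was detectable.

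**Figure D3:**
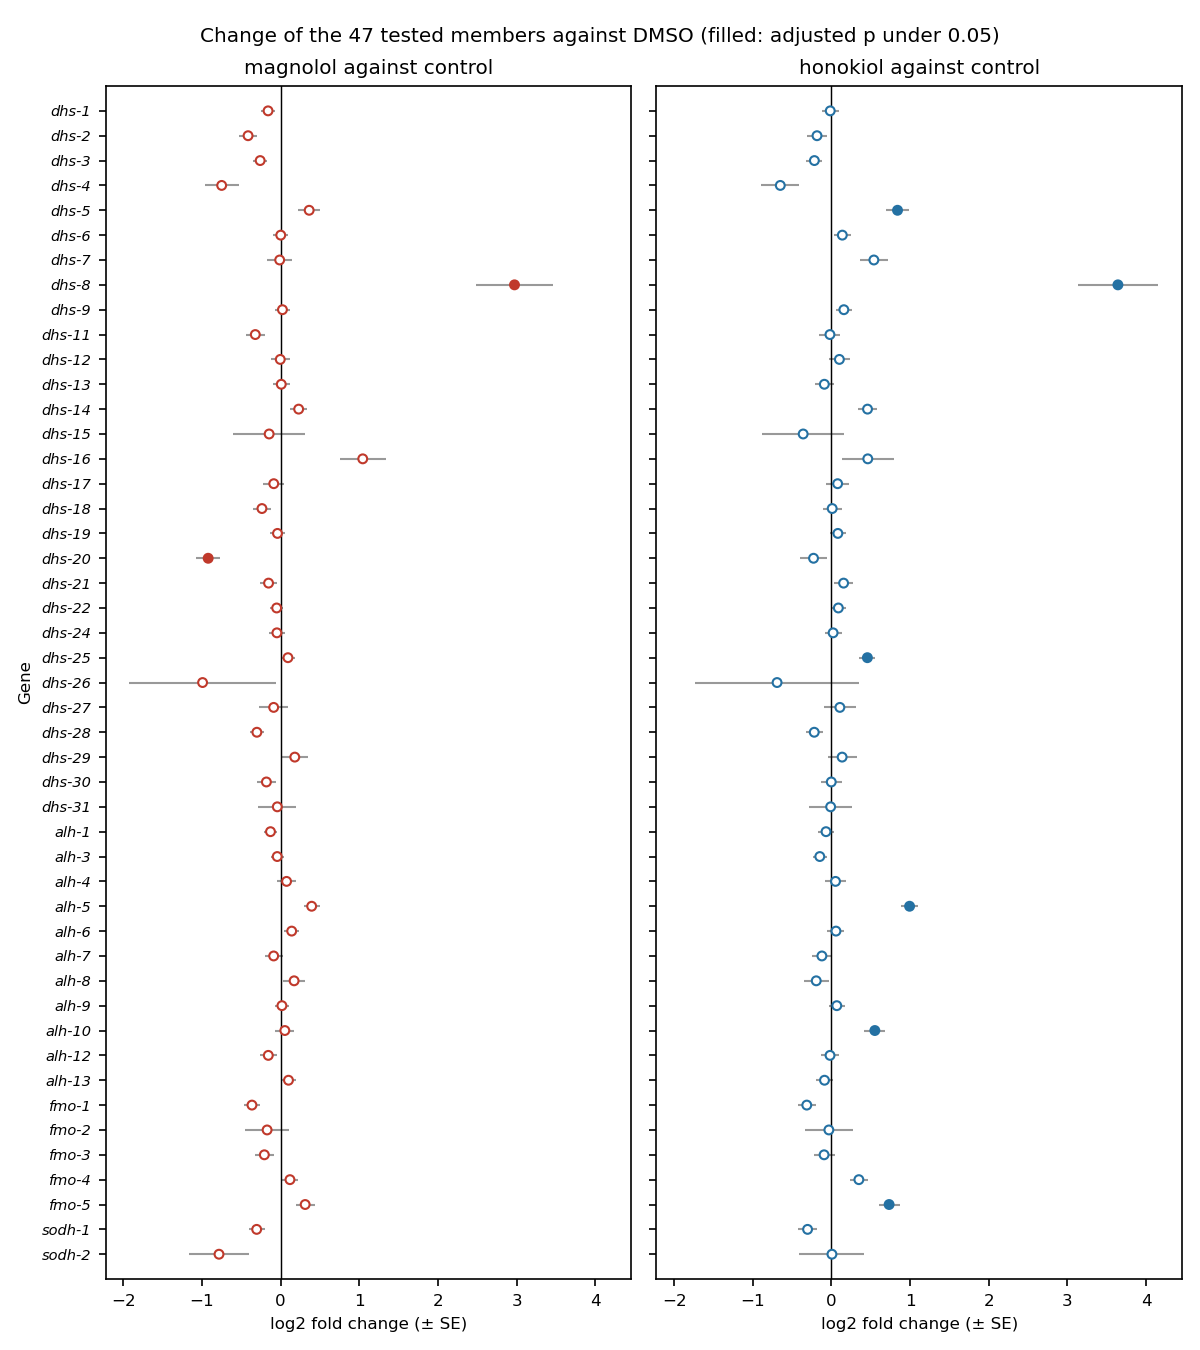
Log2 fold change ± SE of the 47 tested genes, for magnolol against control (left) and honokiol against control (right), with filled points at an adjusted p under 0.05. With magnolol 2 points are filled, dhs-8 and dhs-20. With honokiol 6 are filled, all to the right of 0.

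Other members with known metabolic roles were not called with either compound. In the order magnolol, honokiol and control, alh-8 had 719, 998 and 816 CPM, then 770.4 and 540.5 CPM, then 756, 686 and 807 CPM, and all groups overlapped. For alh-1 the values were 439.6, 413 and 428 CPM with magnolol, 429.9 and 459.9 CPM with honokiol and 457, 472 and 471 CPM in control. The changes of alh-1 were -0.13 ± 0.09 with magnolol and -0.07 ± 0.10 with honokiol. The fatty aldehyde dehydrogenase gene alh-4 had a log2 value of 0.08 ± 0.12 with magnolol and 0.05 ± 0.14 with honokiol. In proline metabolism, alh-6, which completes the breakdown of proline in mitochondria, had log2 values of 0.14 ± 0.10 and 0.06 ± 0.11 with those compounds, and alh-13, which starts proline synthesis from glutamate, had 0.10 ± 0.10 and -0.09 ± 0.11. The gene for formyltetrahydrofolate dehydrogenase, alh-3, had a log2 value of -0.04 ± 0.08 with magnolol and -0.15 ± 0.09 with honokiol. The reductase gene dhs-21, which acts on xylulose and diacetyl, had log2 values of -0.15 ± 0.11 and 0.15 ± 0.12 with magnolol and honokiol, and dhs-19, whose product is found on lipid droplets, had -0.04 ± 0.09 and 0.08 ± 0.11. Named for its level alone, dhs-22 had -0.05 ± 0.09 with magnolol and 0.09 ± 0.10 with honokiol, and was not called.

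Of the 47 members 7 were lower in every treated library than in any control, against 3.08% of all rows. In the other direction, alh-5, dhs-8 and fmo-5 were higher in every treated library than in any control. The share of all rows was not computed for that direction. Both comparisons use the same 3 controls. Of the 7 lower members, none passed the test in the main edgeR fit with either compound. Under some alternatives fmo-1, dhs-2 and dhs-28 were called with magnolol. The sodh-1 gene, an alcohol dehydrogenase that takes part in ethanol metabolism, had 399, 471 and 412 CPM with magnolol, 431 and 424 CPM with honokiol and 580.4, 516 and 486 CPM in control. Its changes were -0.30 ± 0.10 with magnolol (edgeR adjusted p = 0.156) and -0.30 ± 0.12 with honokiol (edgeR adjusted p = 0.279), measured against the same 3 controls. The same order held for dhs-28, with 159, 161 and 174 CPM with magnolol, 164 and 184 CPM with honokiol and 201, 218 and 189 CPM in control. The changes of dhs-28 were -0.30 ± 0.09 (edgeR adjusted p = 0.117) and -0.22 ± 0.11 (edgeR adjusted p = 0.489). Among the alternatives only DESeq2 called dhs-28, with an adjusted p of 0.0288 for magnolol. For dhs-3, a marker of intestinal lipid droplets, the libraries had 76.4, 66.4 and 72.7 CPM with magnolol, 71.3 and 76.7 CPM with honokiol and 84.0, 91.8 and 82.2 CPM in control. The edgeR adjusted p of dhs-3 was 0.173 with magnolol and 0.467 with honokiol. The other members of the 7 were fmo-1, dhs-2, dhs-4 and alh-3. In alh-3 the margin was small, with 156.5 CPM in the highest treated library and 157.1 CPM in the lowest control.

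**Figure D4:**
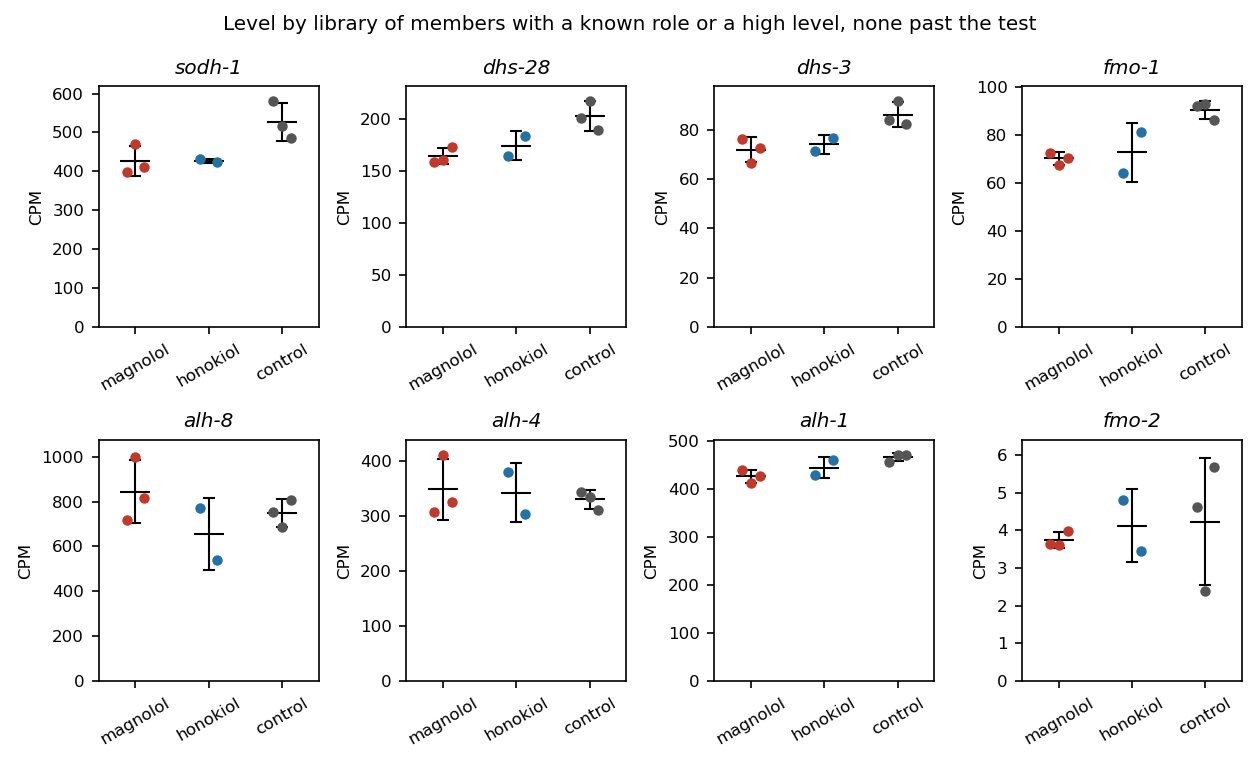
CPM in each library (points) with the group mean and SD (bars) for 8 genes with a known role or a high level (magnolol and control n = 3, honokiol n = 2). None of them passed the test in the main edgeR fit. In sodh-1, dhs-28, dhs-3 and fmo-1 all treated libraries lie below all controls; in alh-8, alh-4 and fmo-2 the groups overlap.

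The fmo-2 gene, which extends worm lifespan when induced by hypoxia signalling or dietary restriction, had 3.64, 3.61 and 3.99 CPM with magnolol, 4.81 and 3.44 CPM with honokiol and 4.61, 2.38 and 5.69 CPM in control. Control 2 was the lowest library and control 3 the highest, so the control range enclosed all treated libraries. The 95% interval of its log2 change was -0.76 to 0.42 with magnolol and -0.69 to 0.63 with honokiol. Of 9 regulators tied to fmo-2 in the literature (the hypoxia pathway genes hif-1, egl-9, vhl-1, rhy-1 and cysl-1, and nhr-49, hlh-30, skn-1 and wdr-23), 0 were called with either compound in edgeR, DESeq2 or limma-voom. At an unadjusted p under 0.05 in edgeR there were 1 with magnolol (hlh-30) and 3 with honokiol (egl-9, rhy-1 and wdr-23), against 15.4% and 10.8% of all rows. Between the compounds 4 of the 9 (egl-9, hif-1, hlh-30 and skn-1) were under that p, against 16.1% of all rows, and 0 were called by any of these tools. Their changes ran from -0.12 to 0.31 with magnolol and from -0.35 to 0.28 with honokiol.

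Magnolol and honokiol were compared directly at the same dose and time for all 47 members, 1 pair of compounds. A single member differed, alh-5, which was lower with magnolol than with honokiol, against 0.285% of all rows called higher with magnolol and 1.24% called lower (1.53% in all). The alh-5 gene had 26.6, 27.6 and 28.2 CPM with magnolol and 44.5 and 38.5 CPM with honokiol, and the groups did not overlap. The difference was -0.60 ± 0.11 (edgeR adjusted p = 0.00957), a level 1.51-fold lower with magnolol. Without honokiol 1 its adjusted p was 0.0685.

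The other 4 genes that rose with honokiol and were not called with magnolol also had all magnolol libraries below both honokiol libraries, but their differences did not pass the test. For dhs-5 the values were 22.5, 18.9 and 24.3 CPM with magnolol and 32.8 and 28.1 CPM with honokiol, a difference of -0.48 ± 0.15 (edgeR adjusted p = 0.135). For fmo-5 they were 18.5, 17.4 and 22.2 CPM with magnolol and 26.3 and 25.6 CPM with honokiol, a difference of -0.42 ± 0.13 (edgeR adjusted p = 0.145). In alh-10 the difference was -0.50 ± 0.13 (edgeR adjusted p = 0.0906) and in dhs-25 it was -0.36 ± 0.10 (edgeR adjusted p = 0.11). DESeq2 called alh-10 and dhs-25, with adjusted p = 0.0416 and 0.0399, and limma-voom called neither.

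Among the genes called with magnolol, dhs-20 had 6.38, 6.47 and 5.46 CPM with magnolol and 10.5 and 9.26 CPM with honokiol, without overlap. Its difference was -0.69 ± 0.17 (edgeR adjusted p = 0.0641). DESeq2 gave an adjusted p of 0.0268 for dhs-20, and limma-voom did not call it. The dhs-8 gene rose with both compounds. Its difference between them was -0.67 ± 0.44, with a 95% interval of -1.60 to 0.27, and the magnolol and honokiol libraries overlapped.

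For 41 of the 47 members the 95% interval of the difference lay within a 2-fold difference either way, and for 30 within 1.5-fold. The intervals of dhs-8, dhs-15, dhs-16, dhs-20, dhs-26 and sodh-2 reached past 2-fold. For alh-8 the interval was 0.02 to 0.71 around a difference of 0.37 (edgeR adjusted p = 0.282), which was 0.63 without honokiol 1, 0.13 without honokiol 2 and 0.22 without magnolol 2. For sodh-1 the interval was -0.25 to 0.24. Of the 47 members 10 had a log2 difference above 0, against 47.8% of all rows, and 37 were below 0, meaning lower with magnolol. The median difference was -0.14 over the members and -0.01 over all rows. Without overlap, 2 members were higher with magnolol and 15 lower, against 16.4% and 18.3% of all rows (34.7% in all). At an unadjusted p under 0.05 in edgeR 1 was higher and 9 were lower, against 8.95% and 7.11% of all rows (16.1% in all). Across uncalled genes the difference between the compounds moved with exon length, with a Spearman rho of 0.465 across 13919 genes. Genes are no independent replicates. The same measure gave rho = 0.351 for magnolol and -0.187 for honokiol against control. After each library was corrected for its trend with length, 38 members were below 0 and the median was -0.11.

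**Figure D5:**
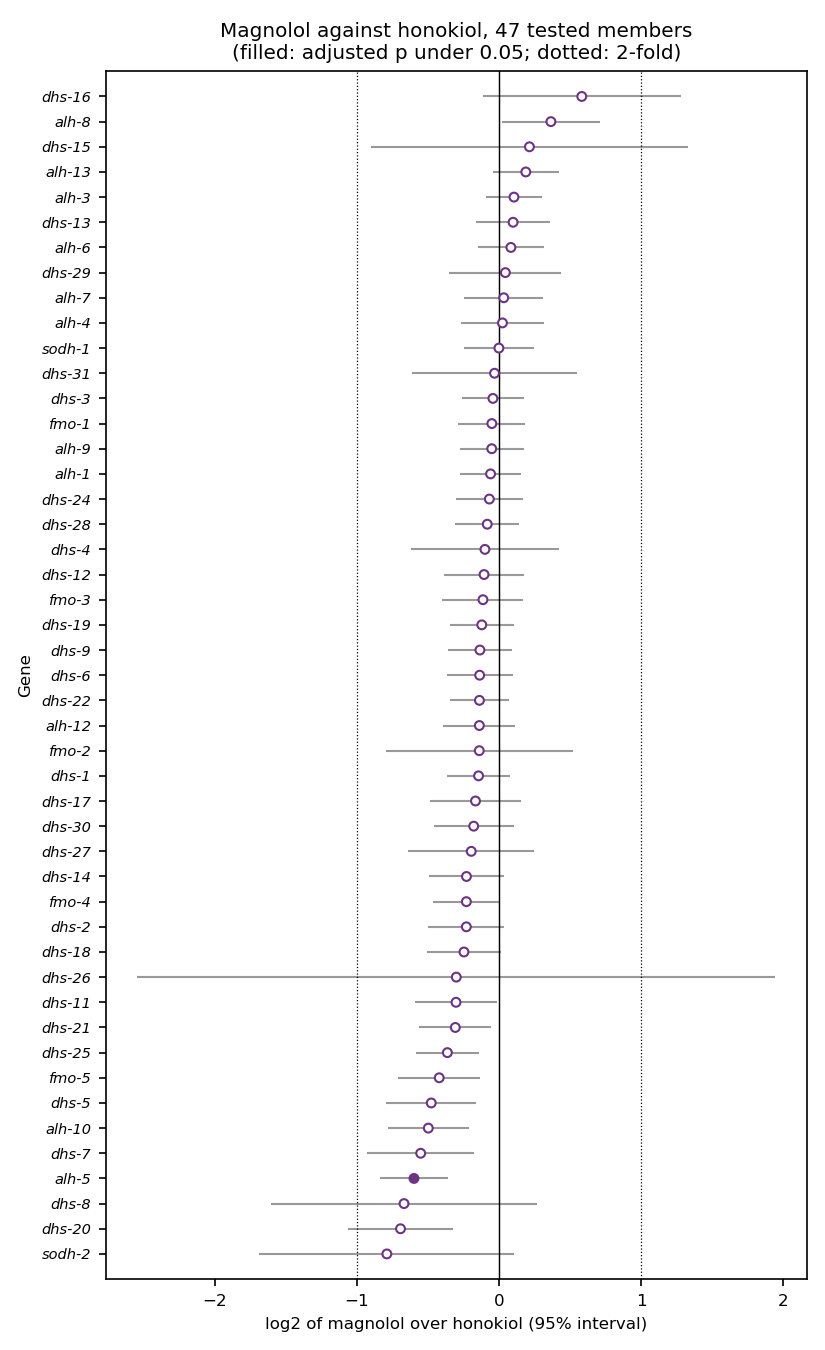
Log2 of magnolol over honokiol with its 95% interval for the 47 tested genes, ordered by value, with dotted lines at a 2-fold difference. The filled point, alh-5, is the one that passed the test, and 37 of the 47 points lie to the left of 0.

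Enzymes that work beside these families were counted from lists of known partners. In the propionate shunt that contains alh-8, 0 of the 7 listed genes (acdh-1, ech-6, hach-1, hphd-1 and the receptors nhr-10, nhr-68 and nhr-114) were called with either compound by any of the 3 tools, and the unadjusted p of edgeR was under 0.05 for 0 of them. The same was found for the 7 genes listed for vitamin B12-dependent metabolism, pcca-1, pccb-1, mce-1, mmcm-1, mmaa-1, mtrr-1 and metr-1. It also held for the 3 proline enzymes found in the table, prdh-1, pycr-1 and pycr-4. Over all rows edgeR called 2.87% with magnolol and 3.43% with honokiol, and 15.4% and 10.8% had an unadjusted p under 0.05. Of 13 tested related dehydrogenases and peroxisomal enzymes outside the families, 1 was called in edgeR with each compound, stdh-2, a putative steroid dehydrogenase gene. DESeq2 also called daf-22 with magnolol. At an unadjusted p under 0.05 in edgeR there were 3 with magnolol (daf-22, maoc-1 and stdh-2) and 1 with honokiol, against 15.4% and 10.8% of all rows. The stdh-2 gene averaged 3.60 ± 0.515 CPM with magnolol, 10.4 ± 0.271 CPM with honokiol and 0.861 ± 0.116 CPM in control (SD, n = 3, 2 and 3). Its changes were 2.06 ± 0.22 with magnolol and 3.59 ± 0.23 with honokiol. Between the compounds stdh-2 differed by -1.53 ± 0.21 (edgeR adjusted p = 0.000671). The emb-8 gene, which encodes the reductase that passes electrons to P450s, also passed the test, with changes of 1.12 ± 0.11 for magnolol and 1.28 ± 0.11 for honokiol (edgeR adjusted p = 5.9e-06 and 2.54e-06).

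The family member dhs-23, left out by the choice of members, had 11.9, 6.79 and 11.3 CPM with magnolol, 70.4 and 86.9 CPM with honokiol and 3.10, 2.80 and 3.04 CPM in control, and the 3 groups did not overlap.

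The remaining 23 tested members, which no rule named, had log2 values of -0.99 to 0.23 with magnolol and of -0.69 to 0.54 with honokiol. Of these, 21 and 20 were within 0.5 of 0 on the log2 scale. The dhs-7 gene, at 13.3, 11.2 and 12.4 CPM with magnolol, 16.6 and 19.4 CPM with honokiol and 9.37, 13.2 and 14.8 CPM in control, had the largest difference between the compounds among them, -0.55 ± 0.18 (edgeR adjusted p = 0.146). Within groups the 47 members had a median coefficient of variation of 8.68% over the magnolol libraries, 9.49% over the honokiol libraries and 8.62% over the controls.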

How the data were processed

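RNA-seq read counts of whole worms were taken from the 1 table that the authors deposited, with 3 magnolol, 2 honokiol and 3 control libraries placed by their titles through the library names. The authors deposited raw read counts for each gene, in whole numbers that were not normalized. RNA was extracted with TRIZOL, per the labels' protocols. The submitters' processing notes name WBcel235 and DESeq2 with no role; the sources used here name no aligner, counting tool or strand setting, and not how shared reads were handled, so overlapping genes and near-identical copies cannot be told apart with certainty.

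Counts were fitted with edgeR 4.0.16 in R 4.3.3: filterByExpr defaults, TMM scaling, group means over all 8 libraries, glmQLFit and two-sided glmQLFTest, with Benjamini-Hochberg adjustment over 16813 rows. The fit was tested on simulated counts. Alternatives were DESeq2 1.42.0 (size factors, and test), limma-voom 3.58.1, no filter, at least 50 counts in 3 libraries, a threshold of 0.01, a fit of 2 groups, the replicate number as a block, and each library left out. A correction for exon length was added after the data were seen. Positions and exon lengths came from Ensembl release 115 on WBcel235, in which 47 of 48 members were found by symbol. Figures used Python 3.11.15 and matplotlib 3.10.9. Intervals cover 95%, and a count of 0 was read as up to 3 counts, for counting error only.

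Members and lists were chosen with earlier results of these data known. Genes named by rule were those called in any comparison, the 3 most abundant of each of the dhs, alh and fmo families, and both sodh genes. To these came 13 genes with a known role outside the sodh family. These sets overlap and together hold 24 genes. The genes dhs-2, dhs-4, dhs-7, dhs-14, dhs-15 and dhs-26 were named after their values were seen.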

Additional observations from a re-analysis of the deposited data

Results flagged for a closer look

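The effects of magnolol and honokiol on alh-5 differed in the test of the difference itself. The difference in log2 change was -0.60, with changes of 0.40 with magnolol and 0.99 with honokiol against the same controls. The edgeR adjusted p was 0.00957 with all libraries and 0.0685 without honokiol 1.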

How the results depend on the processing

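With magnolol against control 2 members were called, and 1 to 7 under the alternatives: 4 with no low-count filter, 4 with the strict filter, 7 in DESeq2, 1 in limma-voom and 4 with the length correction. DESeq2 added alh-5, dhs-2, dhs-16, dhs-28 and fmo-1, and limma-voom lost dhs-8. With one library left out the count was 2 to 3, and with honokiol 4 to 7 against 6. Between the compounds the count of 1 became 3 with no filter, 4 in DESeq2 and 0 with the replicate block, and with one library left out it was 0 to 2. Over all rows DESeq2 called 762 genes for magnolol against 482, and between the compounds 633 genes against 257, with 576 under no filter and 163 under the replicate block. With one library left out 294 to 522 rows were called with magnolol and 127 to 574 between the compounds. For the 24 genes named by rule, of 1152 values under alternatives 1119 kept direction and side of the threshold or were uncalled throughout, 13 lost the threshold, 20 gained it and 0 called values changed sign, while 35 uncalled values did. Outside these 24 genes, DESeq2 also called dhs-2 with magnolol and dhs-14 with honokiol. The cause of these changes was not tested.

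Same-numbered libraries did not deviate together (correlations of deviations from group means -0.17 to 0.0862 over 7 pairs), so the numbers were not taken as pairs. With the replicate number as a block the calls were 2 with magnolol, 4 with honokiol (dhs-25 and alh-10 lost) and 0 between the compounds, where alh-5 had an adjusted p of 0.0721. The interval of the difference between compounds reached past 2-fold for dhs-8, dhs-15, dhs-16, dhs-20, dhs-26 and sodh-2, and alh-2 had too few counts for the filter.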
